A study of Mus musculus with 6 samples.

Results

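Expression of 10 genes for transcription factors of blood stem and progenitor cells was compared between murine leukemias with and without *IRX3*. The genes were the 3 RUNX genes *Runx1*, *Runx2* and *Runx3*, the SCL complex genes *Tal1*, *Lyl1* and *Lmo2*, the ETS genes *Fli1*, *Erg* and *Spi1*, and *Myb*. They were found by symbol, 1 entry each, among 41128 genes, and 8 of the 10 were among the 9522 protein-coding genes tested. *Runx2* and *Tal1* did not reach the expression limit of the test.

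Both cohorts carried retroviral FLAG-tagged *Hoxa9*. The labels give the strain as C57BL/6, and the methods name the CD45.1+ mice as the congenic B6.SJL-PtprcaPepcb/BoyJ. KIT+ bone marrow cells of CD45.1+ mice were transduced with *Hoxa9* together with the empty vector MTV (*Hoxa9*/MTV) or with MYC-tagged human *IRX3* (*Hoxa9*/*IRX3*), selected with drugs and transplanted into irradiated CD45.2+ recipients. When recipients had leukemia, donor-derived viable KIT+Gr1+ cells were sorted from thawed bone marrow, with 3 mice per cohort and 1 library per mouse. The mice were 1.1, 1.2 and 1.4 in the *Hoxa9*/MTV cohort and 3.2, 3.3 and 3.5 in the *Hoxa9*/*IRX3* cohort. Retroviral expression is not under the control of the native genes. The gate was set for cells with both surface markers, so that the values do not describe the leukemias as a whole. The purity of the sort is not given in the sources used here.

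RUNX proteins bind DNA as heterodimers with CBFB. SCL, the product of *Tal1*, and its paralog LYL1 bind E-boxes together with E proteins and are linked through LMO2 and LDB1 to GATA factors. FLI1, ERG and PU.1 (the product of *Spi1*) are ETS proteins, and these factors share many enhancers in blood stem cells. PU.1 is also needed for myeloid differentiation, and MYB for the proliferation of progenitors.

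The distal promoters of the 3 RUNX genes share a sequence feature, which is shown because *Runx1* and *Runx3* are the members whose shares of their family did not overlap between the cohorts. Each holds a pair of RUNX motifs (letters TGTGGT, searched on both strands, and read here as the reverse complement), given in capitals. The stretches are 5′ to 3′ on the strand of the gene, from RefSeq promoter windows on GRCm38.p6, at chr16:92826025-92826054 (minus strand) for *Runx1*, chr17:44814583-44814612 (minus) for *Runx2* and chr4:135120503-135120532 (plus) for *Runx3*.
Runx1: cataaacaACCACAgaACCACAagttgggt
Runx2: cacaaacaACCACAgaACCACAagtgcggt
Runx3: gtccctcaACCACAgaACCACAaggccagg
The motifs of a pair lie 2 bases apart. The pair begins at base 29 after the annotated start in *Runx1* and at base 24 in *Runx2*, and 134 bases before it in *Runx3*. The motif itself was in 16.8% of 32851 windows of 300 bases, and a pair with this spacing on 1 strand was in 7 windows of 7 genes, which is 0.0213% of them. The spacing was searched for after the windows had been seen. *Lyl1* held no RUNX motif in its window, but 2 matches to an ETS motif (CCGGAA, either strand), shown in capitals because ETS factors are among the members.
Lyl1, chr8:84701268-84701289, plus strand: ttgtctccTTCCGGagccctat
Lyl1, chr8:84701382-84701403, plus strand: tcagaggaCCGGAAaggggccc
These lie 181 and 67 bases before the start, and 14.9% of all windows hold the motif and 3.59% hold it at least 2 times. Windows were found for 7 of the 10 genes. The matches are descriptions of these letters, and the expression table does not separate the promoters of a gene.

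The libraries rest on 7979246 to 9803621 reads, as recovered from the deposited values. Those values are RPKM, read numbers divided by gene length in kilobases and by library depth, with the whole span of the gene, introns included, as its length. RPKM per exon length is the same value divided by exon length in place of the span. This scale is used wherever genes are compared with each other, and reads in introns are included in it. Murine *Irx3* (the introduced gene is human) had no read in the *Hoxa9*/MTV libraries, and 15.1, 0.421 and 0.148 RPKM were found for mice 3.2, 3.3 and 3.5. These values rest on about 474, 15 and 4 recovered reads, and whether the reads come from the human transcript was not tested. The study itself reported high *IRX3* expression in bone marrow leukemia cells of the *Hoxa9*/*IRX3* cohort. *Elane*, for neutrophil elastase, was at 614 to 3332 RPKM. Of 10 erythroid markers 5 were at 0 in all mice, although near-identical globin copies can lose reads to a mapping quality limit. The summed RPKM of 7 monocyte and macrophage markers were 60.9 to 82.1 in *Hoxa9*/MTV and 12.7 to 22.1 in *Hoxa9*/*IRX3* mice, and those of 8 neutrophil markers were 1482 to 2174 and 1093 to 3333. The neutrophil sums came mostly from *Ngp* (543 to 1480 RPKM over all mice) and *S100a8* (320 to 1367). Of the 8 only *Retnlg* passed the test, with 1.32, 1.08 and 1.09 RPKM against 3.82, 3.88 and 8.75 (adjusted p of 0.0285 by limma). The part of such marker differences in the values below was not tested. In bulk RNA, fewer cells of a type and less RNA per cell cannot be told apart.

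None of the 8 tested genes changed at an adjusted p under 0.05 by limma, where 5.36% of all tested genes did, 1.84% with higher and 3.52% with lower expression in *Hoxa9*/*IRX3*. At an unadjusted p under 0.05 there were 2, *Runx3* and *Fli1*, where the share of all tested genes was 24.3%. The cohorts did not overlap for the same 2 genes, and did not overlap for 33.7% of all tested genes. With values per exon length, 0 of the 10 genes changed, where 6.03% of 11856 genes did, and 3 had an unadjusted p under 0.05, where 24.4% did. On recovered reads, limma voom called 0 of the 8 as well (5.18% of all tested genes), with 4 at an unadjusted p under 0.05 (24.6%). The median log2 fold change was -0.32 for the 8 genes and -0.06 for all tested genes, and 2 of the 8 had a higher estimate and 6 a lower one. Leaving out mouse 3.5 gave 2 calls, *Runx3* and *Erg*, on either scale, where 4.85% of all tested genes passed per span and 5.59% per exon length.

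**Figure D1:**
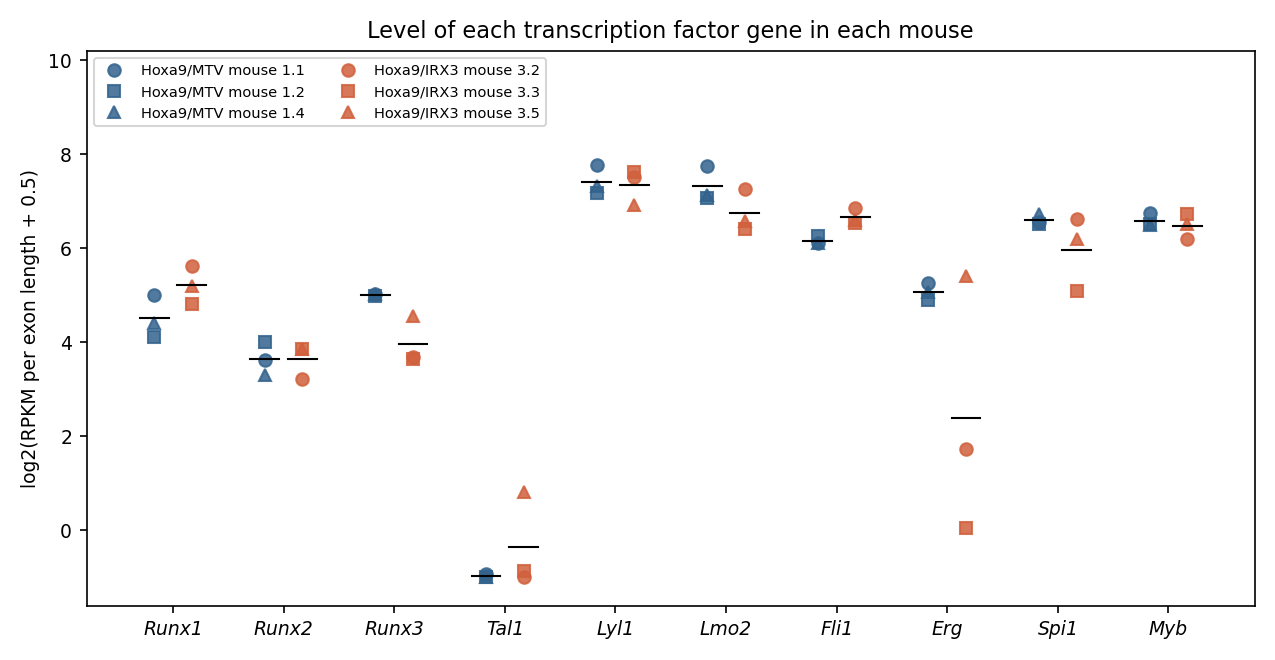
Level of the 10 genes in each mouse, as log2 of RPKM per exon length plus 0.5. Points are single mice, blue for *Hoxa9*/MTV and orange for *Hoxa9*/*IRX3*, and short lines are cohort means. *Erg* in mice 3.2 and 3.3 lies far below the other mice, *Tal1* stands above the floor only in mouse 3.5, and the cohorts separate for *Runx3* and *Fli1*.

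Levels of the 10 genes spanned a wide range. Per exon length, *Lyl1* was highest in the *Hoxa9*/MTV leukemias, at 173 ± 38.3 RPKM (SD, n = 3), followed by *Lmo2* at 162 ± 44.5. Their ranges overlapped, although *Lyl1* was above *Lmo2* in all 3 mice of each cohort. *Spi1* at 96.7 ± 8.38 and *Myb* at 96.1 ± 10.03 overlapped too. *Fli1* came next at 70.9 ± 4.12. *Erg* at 33.5 ± 4.27, *Runx3* at 31.7 ± 0.541 and *Runx1* at 23.02 ± 7.69 overlapped with their neighbours in this order, and *Runx2* was lower at 12.3 ± 3.15. *Tal1* was close to 0. In the *Hoxa9*/*IRX3* leukemias *Lyl1* and *Lmo2* were again highest by their means, *Fli1* moved from position 5 to 3, *Runx1* from 8 to 6, and *Erg* from 6 to 8. The choice of length matters for this order. The span of *Erg* is 65.6 times its exon length, that of *Runx2* 36.1 times and that of *Lyl1* 1.81 times, so that RPKM per span place *Runx3* at position 5, above *Fli1*.

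Among the RUNX genes, the share of *Runx1* was higher and that of *Runx3* lower in every *Hoxa9*/*IRX3* mouse than in any *Hoxa9*/MTV mouse, while the sum of the family overlapped. *Runx3* (chr4:135120652-135177990), the family member best known from T cells and dorsal root neurons, had 2.79, 2.71 and 2.79 RPKM per span in mice 1.1, 1.2 and 1.4, and 1.08, 1.05 and 2.03 in mice 3.2, 3.3 and 3.5. All *Hoxa9*/*IRX3* mice lay below all *Hoxa9*/MTV mice, which were almost level with each other, with a coefficient of variation of 1.71%. Mean RPKM in *Hoxa9*/*IRX3* was 0.502 of that in *Hoxa9*/MTV. The log2 fold change was -0.83 ± 0.20 (SE) with an adjusted p of 0.0663 by limma, and -1.04 ± 0.25 with an adjusted p of 0.0615 per exon length. Mouse 3.5 was the nearest to the *Hoxa9*/MTV cohort. Without it the log2 fold change was -1.06 with an adjusted p of 0.00933, and over all alternatives the adjusted p ranged from 0.00565 to 0.220.

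*Runx1* (chr16:92601466-92826149), the RUNX gene required for the first blood stem cells, had 1.69, 0.896 and 1.11 RPKM in the *Hoxa9*/MTV mice and 2.63, 1.47 and 1.95 in the *Hoxa9*/*IRX3* mice. Mouse 1.1 lay above mouse 3.3, so that the cohorts overlapped. The estimate was 0.54 ± 0.23 on the log2 scale, with a 95% interval from -0.01 to 1.09 and an adjusted p of 0.213 by limma. *Runx2* (chr17:44495987-44814797), the osteoblast factor of the family, had 0.327, 0.435 and 0.262 RPKM in the *Hoxa9*/MTV mice and 0.245, 0.391 and 0.390 in the others, and was not tested on that scale. Behind these values were 692 to 1222 reads. Its log2 fold change per exon length was 0.00 ± 0.25, with a 95% interval from -0.60 to 0.61. Of 8 osteoblast and stroma markers, 2 were at 0 in all mice and the summed RPKM of the list was at most 0.461. *Supt3*, which overlaps *Runx2* on the opposite strand, had 28 to 95 reads, and whether counting used strand is not given in the sources used here.

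The ratio of *Runx1* to *Runx3* per exon length was 0.987, 0.538 and 0.647 in the *Hoxa9*/MTV mice and 3.95, 2.28 and 1.57 in the *Hoxa9*/*IRX3* mice. On this scale *Runx3* was the higher of the pair in all 3 *Hoxa9*/MTV mice and *Runx1* in all 3 *Hoxa9*/*IRX3* mice. Which gene is higher depends on the length used, since per span mouse 3.5 had 1.95 RPKM of *Runx1* and 2.03 of *Runx3*. *Runx1* made up 33.9% ± 7.78 (SD, n = 3) of the RUNX sum in *Hoxa9*/MTV and 56.8% ± 11.3 in *Hoxa9*/*IRX3*, and *Runx3* 47.6% ± 4.65 and 23.9% ± 7.02. The cohorts did not overlap in either share, and did in that of *Runx2* (18.5% ± 5.36 and 19.3% ± 6.86). The sum of the 3 genes was 75.4, 63.5 and 62.2 RPKM per exon length in *Hoxa9*/MTV and 70.4, 53.7 and 73.7 in *Hoxa9*/*IRX3* mice. These ratios were chosen after the values had been seen and carry no test.

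**Figure D2:**
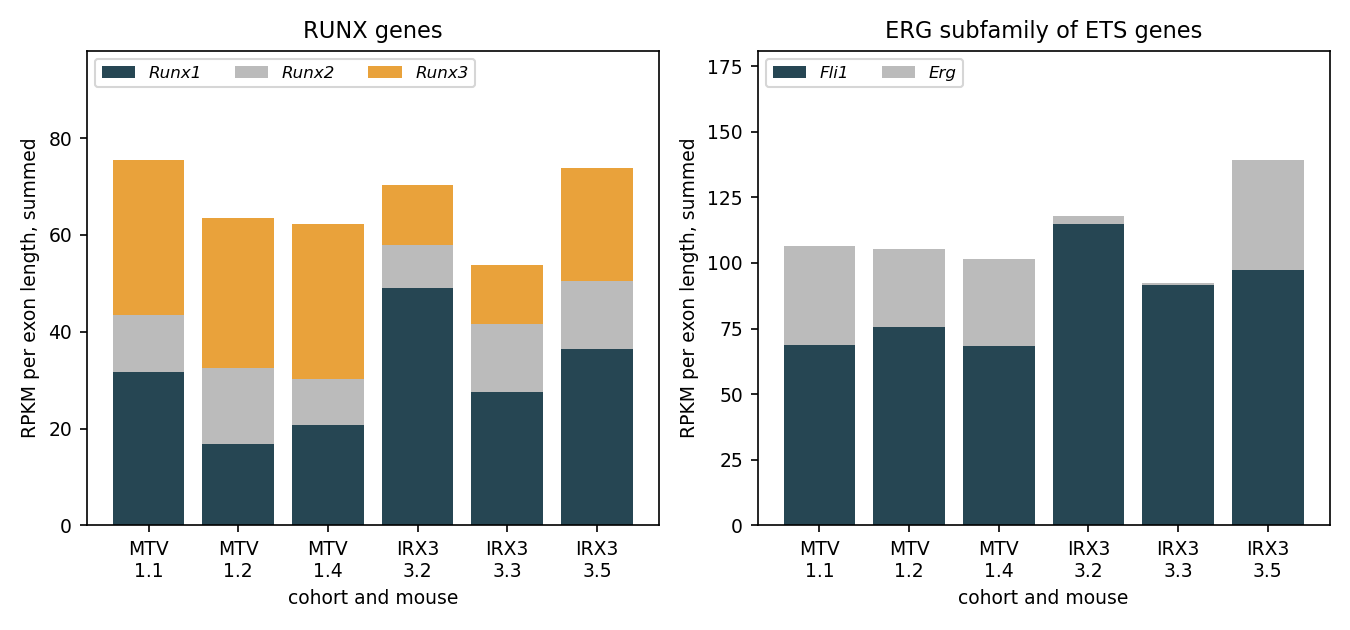
Summed RPKM per exon length of the RUNX genes (left) and of *Fli1* and *Erg* (right) in each mouse, as stacked bars from 0. The dark part (*Runx1*) is a larger share and the orange part (*Runx3*) a smaller share of the left bars in the 3 *Hoxa9*/*IRX3* mice. The sums of the cohorts overlap, and *Erg* is nearly missing from mice 3.2 and 3.3.

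Of the SCL complex genes, *Tal1* (chr4:115056426-115071755), which encodes SCL, was read at the detection limit in 5 of the 6 mice. The reads were 1, 0 and 0 in mice 1.1, 1.2 and 1.4 and 0, 2 and 44 in mice 3.2, 3.3 and 3.5. The signal is that of 1 mouse. The exact 95% Poisson interval was 0 to 3.69 reads for a count of 0 and 32.0 to 59.1 for the 44 reads of mouse 3.5. Per library read, mouse 3.5 had 148 times the *Tal1* reads of the pooled *Hoxa9*/MTV libraries, with a counting interval from 25.2 to 5973, which covers counting error only. The log2 fold change per exon length was 0.62 ± 0.53 with an adjusted p of 0.498 by limma. Of the other lineages that use *Tal1*, 8 of 10 erythroid markers had at most 3 reads in every mouse. The list summed to 0.324 RPKM in mouse 3.5, 0.300 and 0.342 in mice 3.2 and 3.3, and 0.0748 to 0.248 in *Hoxa9*/MTV mice. *Klf1*, on that list, had about 4, 3 and 1 reads in the *Hoxa9*/MTV mice against 8, 10 and 8, without overlap. For *Car1*, on the same list, the cohorts overlapped. Megakaryocyte markers summed to 12.8 RPKM in mouse 3.5 and 1.62 to 7.64 in the others, of which *Gp1bb* gave 12.0 in mouse 3.5. *Ppbp* and *Gp6* were at 0 in all mice. *Itga2b* went the other way, with 15, 15 and 36 reads in the *Hoxa9*/MTV mice and 10, 8 and 0 in mice 3.2, 3.3 and 3.5. *Vwf* had 5, 4 and 7 reads against 43, 2 and 21. Endothelial markers summed to 5.89 RPKM in mouse 3.5, nearly all from *Pecam1*, and 5 of those 7 markers had at most 3 reads in every mouse. The part of these cells in the *Tal1* reads was not tested.

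*Lyl1* (chr8:84701457-84704715), which can stand in for SCL in adult blood stem cells, was read at high levels in all mice. It had 120, 79.0 and 88.5 RPKM in the *Hoxa9*/MTV mice and 101, 108 and 66.6 in the *Hoxa9*/*IRX3* mice. The cohorts overlapped, and the log2 fold change was -0.07 ± 0.25, with a 95% interval from -0.66 to 0.53. Its sign turned under median-of-ratios scaling and without mouse 1.1 or mouse 3.5. *Nfix* overlaps it on the opposite strand, with 458 to 765 reads beside the 1732 to 3448 of *Lyl1*.

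*Lmo2* (chr2:103957986-103981878), the bridging protein of the complex, had 19.4, 12.1 and 12.6 RPKM in the *Hoxa9*/MTV mice and 13.8, 7.67 and 8.58 in the *Hoxa9*/*IRX3* mice. Mouse 3.2 lay among the *Hoxa9*/MTV mice and the other two below them. The log2 fold change was -0.55 ± 0.28, with a 95% interval from -1.21 to 0.11 and an adjusted p of 0.275 by limma. Among 13 partners of the complex 7 were tested and 1 changed (5.36% of all tested genes did). At an unadjusted p under 0.05 there were 2 (24.3% of all tested genes). *Gata2*, the GATA factor of stem cells and early progenitors, had 4.31, 2.95 and 5.84 RPKM in the *Hoxa9*/MTV mice and 0.198, 0.0155 and 0.773 in the *Hoxa9*/*IRX3* mice, and fell by 2.62 ± 0.37 on the log2 scale (adjusted p of 0.0166 by limma). *Ldb1*, which joins LMO2 to itself and to GATA factors, had 10.3, 10.8 and 12.4 RPKM against 9.29, 6.16 and 5.72, without overlap, but an adjusted p of 0.115. The median log2 fold change of the 7 partners was -0.11. *Gata1* and *Gata3* did not reach the limit of the test. Of 7 mast cell and basophil markers 4 had at most 3 reads in every mouse. *Cpa3* had 1.15, 0.444 and 1.46 RPKM in *Hoxa9*/MTV mice against 0.0425, 0 and 0.118 (adjusted p of 0.0432 by limma). *Mcpt8* had 8.75, 13.7 and 12.4 against 3.18, 6.69 and 4.68 (adjusted p of 0.0621). *Ms4a2* went the other way, with 0.290, 0.279 and 0.542 against 1.09, 0.610 and 0.933 (adjusted p of 0.103). The part of such cells in the *Gata2* values was not tested.

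Of the ETS genes, *Fli1* (chr9:32422204-32542861), an ETS factor of stem cells and megakaryocytes, had 1.98, 2.19 and 1.98 RPKM in the *Hoxa9*/MTV mice and 3.32, 2.65 and 2.81 in the *Hoxa9*/*IRX3* mice. The lowest *Hoxa9*/*IRX3* mouse exceeded the highest *Hoxa9*/MTV mouse, with coefficients of variation of 5.82% and 11.9%. Mean RPKM was 1.43 times as high in *Hoxa9*/*IRX3*. The log2 fold change was 0.42 ± 0.12 with an adjusted p of 0.0869 by limma, and 0.51 ± 0.13 with an adjusted p of 0.0757 per exon length. Over all alternatives the estimate stayed positive, from 0.34 to 0.57, with an adjusted p from 0.0633 to 0.292.

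*Erg* (chr16:95359169-95586593), the closest relative of *Fli1* and required for the upkeep of stem cells, had 0.579, 0.450 and 0.503 RPKM in the *Hoxa9*/MTV mice and 0.0427, 0.00807 and 0.638 in mice 3.2, 3.3 and 3.5. The reads behind these values were 1165, 850 and 1106, and 86, 18 and 1157. Mice 3.2 and 3.3 lay far below every *Hoxa9*/MTV mouse and mouse 3.5 above them all. Across the cohort the change was therefore not separable from the spread, at -0.57 ± 0.32 per span (adjusted p of 0.316 by limma) and -2.69 ± 1.22 per exon length (adjusted p of 0.230). The pseudocount of 0.5 is about as large as the RPKM per span of this long gene, which compresses its change on that scale. Without mouse 3.5 the values were -0.94 with an adjusted p of 0.0255 and -4.20 with an adjusted p of 0.0193. Over all alternatives the adjusted p ran from 0.0193 to 0.525. Mouse 3.5 was also the mouse with *Tal1* reads. *Erg* is expressed in endothelial cells, whose marker *Pecam1* was at 0.410, 2.79 and 5.88 RPKM in mice 3.2, 3.3 and 3.5. In *Hoxa9*/MTV mice *Pecam1* was at 1.83 to 1.90. It was highest in mouse 3.5, where *Erg* was highest too, and in mouse 3.3, where *Erg* was lowest, it was above the *Hoxa9*/MTV mice. The other 6 endothelial markers had at most 5 reads in any mouse, and *Esam* and *Cldn5* were at 0 in all. The 5 reads were those of *Kdr* in mouse 3.5, and *Kdr* had 0 reads in every other mouse. The cells had been sorted as donor-derived KIT+Gr1+ cells. The part of endothelial cells in the *Erg* reads was not tested.

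The ratio of *Fli1* to *Erg* per exon length was 1.81, 2.56 and 2.07 in the *Hoxa9*/MTV mice and 41.0, 173 and 2.33 in mice 3.2, 3.3 and 3.5. Mouse 3.5 lay among the *Hoxa9*/MTV mice. The sum of both genes was 107, 105 and 101 RPKM per exon length in *Hoxa9*/MTV and 118, 92.3 and 139 in *Hoxa9*/*IRX3* mice, which overlapped.

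*Spi1* (chr2:91082390-91115756), which encodes the myeloid and B-lymphoid regulator PU.1, had 7.55, 7.30 and 8.58 RPKM in the *Hoxa9*/MTV mice and 7.94, 2.71 and 5.86 in the *Hoxa9*/*IRX3* mice. Mouse 3.2 was level with the *Hoxa9*/MTV mice and mouse 3.3 lowest. The log2 fold change was -0.57 ± 0.34, with a 95% interval from -1.39 to 0.24 and an adjusted p of 0.344 by limma. Among 15 genes listed as PU.1 targets 14 were tested, with a median log2 fold change of -0.33. Of these 1 changed (5.36% of all tested genes did), and 6 had an unadjusted p under 0.05 (24.3% of all tested genes). *Cd68*, a lysosomal glycoprotein of macrophages, had 67.9, 87.3 and 80.1 RPKM against 13.1, 18.3 and 6.71, a fall by 2.68 ± 0.35 on the log2 scale (adjusted p of 0.0135 by limma). *Csf1r*, the receptor for M-CSF, had 5.82, 4.77 and 5.94 RPKM in *Hoxa9*/MTV mice and 0.790, 6.43 and 0.552 in mice 3.2, 3.3 and 3.5. It was high in mouse 3.3, where *Spi1* was lowest, and its adjusted p was 0.233.

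Of 23 other ETS genes 12 were tested and 1 changed (5.36% of all tested genes did). Of the 12, 3 had an unadjusted p under 0.05 (24.3% of all tested genes). *Ets1*, an ETS factor best known from lymphocytes, had 0.660, 0.340 and 0.473 RPKM in the *Hoxa9*/MTV mice and 2.28, 1.84 and 4.63 in the *Hoxa9*/*IRX3* mice. It rose by 1.71 ± 0.30 on the log2 scale, without overlap (adjusted p of 0.0304 by limma). Of 8 T and NK cell markers 5 had at most 3 reads in every mouse, while *Nkg7* was at 482 RPKM in mouse 3.5 and 14.9 to 100 in the others. *Lck*, on the same list, had 3, 2 and 4 reads in the *Hoxa9*/MTV mice and 5, 13 and 15 in mice 3.2, 3.3 and 3.5, without overlap. The part of lymphoid cells in the *Ets1* values was not tested. *Erf*, an ETS repressor, had an estimate of -0.47 with an adjusted p of 0.395, and the median of the 12 was -0.02.

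*Myb* (chr10:21124935-21160984), a regulator of progenitor growth, had 26.7, 22.5 and 22.3 RPKM in the *Hoxa9*/MTV mice and 18.1, 26.3 and 22.5 in the *Hoxa9*/*IRX3* mice. Mouse 3.2 was lowest and mouse 1.1 highest, the cohorts overlapped, and the log2 fold change was -0.10 ± 0.18, with a 95% interval from -0.53 to 0.32. Its sign turned without mouse 3.2. Of 4 MYB family genes and coactivators 3 were tested and 0 changed by limma, with 0 at an unadjusted p under 0.05. *Mybl2* and *Ep300* had estimates of 0.04 and 0.08. Of 9 genes listed as MYB targets, 7 were tested, 1 rose and 2 fell (5.36% of all tested genes changed). An unadjusted p under 0.05 was found for 4 of the 7 (24.3% of all tested genes). *Cd34*, a surface marker of progenitors, had 18.5, 15.3 and 18.3 RPKM against 0.819, 0.00454 and 2.41, a fall by 3.84 ± 0.58 on the log2 scale (adjusted p of 0.0206 by limma). *Bcl2*, which protects cells from apoptosis, had 1.03, 0.755 and 0.720 RPKM against 0.299, 0.177 and 0.315, a fall by 0.80 ± 0.15 (adjusted p of 0.0369). *Elane*, which is also on the list of RUNX1 targets, had 715, 1053 and 614 RPKM against 3324, 3332 and 2237, a rise of 1.91 ± 0.26 (adjusted p of 0.0144). *Cd34* is also 1 of 6 hematopoietic stem cell markers, of which 3 had at most 3 reads in every mouse. Of the others *Procr* had 2, 0 and 5 reads against 0 in each *Hoxa9*/*IRX3* mouse. *Hlf* went the other way, with 0.00832, 0 and 0.0342 RPKM against 0.206, 0.463 and 0.410. Per exon length *Hlf* rose by 2.44 ± 0.35 on the log2 scale (adjusted p of 0.0127 by limma).

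Of 7 partners and corepressors of RUNX proteins 4 were tested and 0 changed by limma, where 5.36% of all tested genes did. None of the 4 had an unadjusted p under 0.05 (24.3% of all tested genes). *Cbfb*, the shared partner of the RUNX proteins, had 6.27, 5.75 and 6.00 RPKM in *Hoxa9*/MTV and 5.21, 5.26 and 5.35 in *Hoxa9*/*IRX3* mice, without overlap but with an estimate of only -0.17 ± 0.11 (adjusted p of 0.357). *Cbfa2t3*, a corepressor that also joins the SCL complex, had 1.93, 1.02 and 1.76 RPKM in the *Hoxa9*/MTV mice and 0.463, 0.0261 and 1.49 in mice 3.2, 3.3 and 3.5. As with *Erg*, mice 3.2 and 3.3 lay below every *Hoxa9*/MTV mouse and mouse 3.5 did not (estimate -1.02, adjusted p of 0.242). Of 8 genes listed as RUNX1 targets 6 were tested, with a median log2 fold change of 0.22. *Elane* rose, and 2 had an unadjusted p under 0.05 (24.3% of all tested genes). Among 8 SCL and GATA targets 3 were tested and 0 changed, with 0 at an unadjusted p under 0.05. *Hhex*, a homeobox gene of progenitors, and *Kit*, the receptor used in the sort, had estimates of -0.54 and -0.31.

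**Figure D3:**
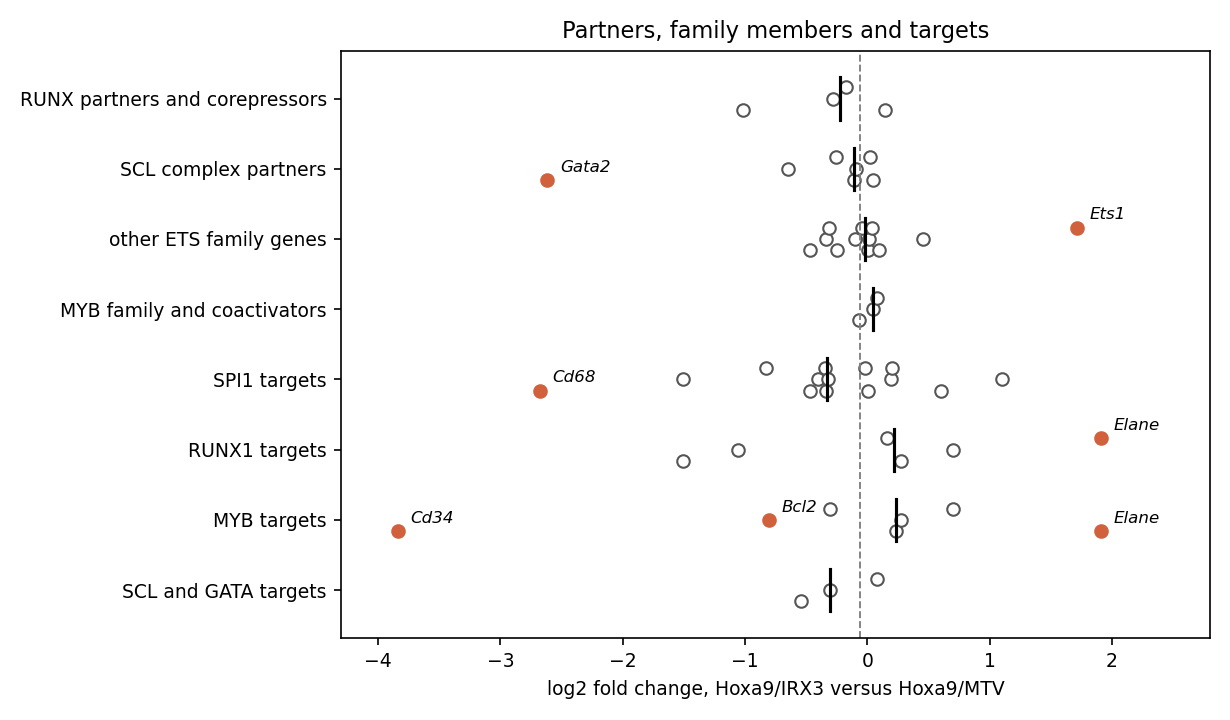
Log2 fold change, *Hoxa9*/*IRX3* versus *Hoxa9*/MTV, of the tested genes in 8 lists of partners, relatives and targets of the 10 factors. Filled orange points passed an adjusted p under 0.05 by limma, short black lines are list medians and the dashed line is the median of all tested genes (-0.06). The 6 genes that passed reach from -3.84 (*Cd34*) to 1.91 (*Elane*, drawn on both its lists), while the list medians lie between -0.33 and 0.24.

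Counting each gene once, 51 of 81 listed genes were tested, 2 rose and 4 fell (of all tested genes 5.36% changed), 15 had an unadjusted p under 0.05 (24.3% of all tested), and their median log2 fold change was -0.09. Most of the 6 calls needed all 3 *Hoxa9*/MTV mice. Without mouse 1.1 or mouse 1.4, 0 of the 51 genes passed, and without mouse 1.2 only *Elane* did. Leaving out a *Hoxa9*/MTV mouse lowered the calls among all tested genes too, from 510 to between 61 and 74. Adjusted p-values without 1 mouse ranged from 0.0131 to 0.0892 for *Gata2*, from 0.0221 to 0.136 for *Ets1*, from 0.0103 to 0.0803 for *Cd68*, from 0.0198 to 0.0812 for *Elane*, from 0.0421 to 0.142 for *Bcl2* and from 0.0112 to 0.103 for *Cd34*. *Bcl2* also lost its call without mouse 3.3 or mouse 3.5. By voom on recovered reads the calls of *Gata2* and *Cd34* ended, with a pseudocount of 0.1 that of *Cd34*, and with no filter on expression those of *Cd34*, *Elane* and *Ets1*.

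**Figure D4:**
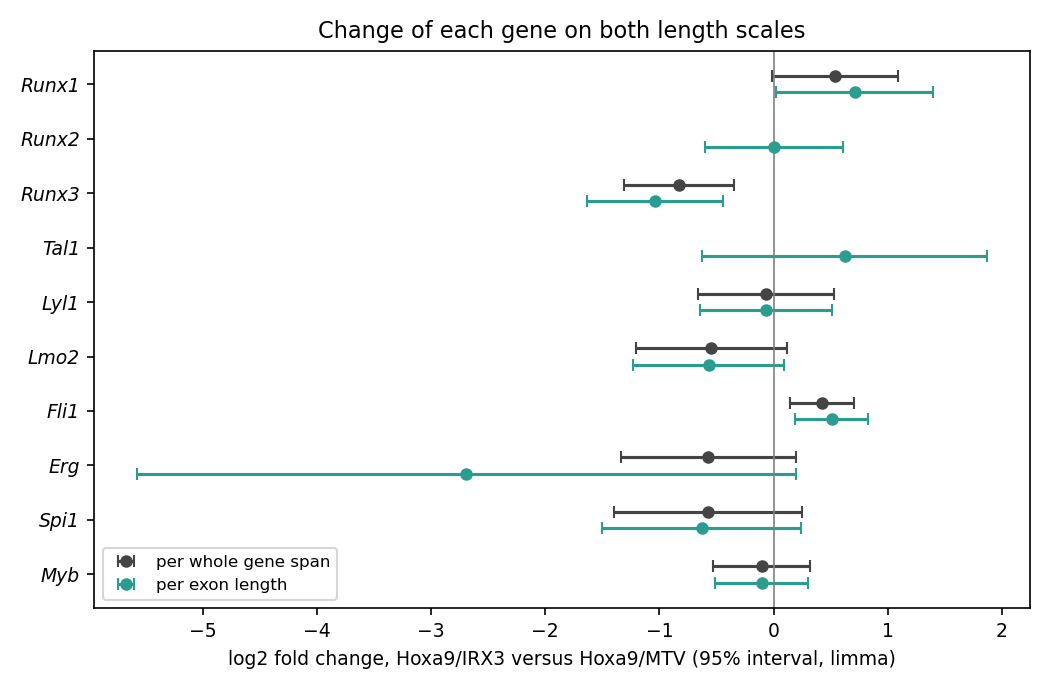
Estimated log2 fold change with its 95% interval from limma for the 10 genes, with length taken as the whole gene span (grey) or as exon length (green). *Runx2* and *Tal1* were tested only per exon length, and the interval of *Erg* per exon length reaches from -5.58 to 0.19.

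Variation among mice was larger in the *Hoxa9*/*IRX3* cohort for 9 of the 10 genes, by the SD of log2 values per exon length, and *Runx1* was the exception. This was not peculiar to them, since 75.99% of all tested genes had the larger SD in that cohort. The median SD was 0.16 in *Hoxa9*/MTV and 0.43 in *Hoxa9*/*IRX3* for the 10 genes, and 0.15 and 0.30 for all tested genes. No mouse was at the same end for all genes. Within its cohort mouse 3.3 was lowest for 6 of the 10 genes, among them *Spi1*, *Lmo2* and *Erg*, but highest for *Runx2*, *Myb* and *Lyl1*.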

How the data were processed

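RNA of KIT+Gr1+ leukemia cells from 6 mice, 3 per cohort, was measured, with cohorts taken from the labels. The authors made strand-specific polyA libraries, aligned reads to GRCm38 with Bowtie2 2.2.1, filtered alignments with SAMtools 0.1.19, assigned reads to Ensembl genes, and deposited RPKM per gene and mouse. Positions, spans and exon lengths came from GENCODE M21. Reads recovered from the steps between low values came out whole (tolerance 0.01) in every library for 65.0% of tested genes and 9 of the 10 members (not *Myb*). No value column was left unused.

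The test took in protein-coding genes that exceeded 0.5 RPKM in any mouse and used log2(RPKM + 0.5), fitted by limma 3.58.1 under R 4.3.3 (variance trend, Benjamini-Hochberg adjustment over all tested genes, threshold 0.05). A fold change on this scale understates the change of low genes. Tests ran on simulated data first. The members and lists were chosen with earlier results of these data known. Named genes are the members, list genes past the threshold, and the 2 largest changes per list where mean RPKM reached 1, with marker genes where their list is described. Alternatives numbered 22, of which 7 were added after seeing the data: voom on genes with at least 10 reads in 3 mice, and exon length without each mouse. Motifs were searched on RefSeq promoter windows. Python 3.11.15, pandas 2.3.3, numpy 2.4.6, scipy 1.17.1 and matplotlib 3.10.9 were used.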

Additional observations from a re-analysis of the deposited data

How the results depend on the processing

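Over 175 refits of the 8 tested genes, 164 kept direction and side of the threshold. *Runx3* and *Erg* passed it only without mouse 3.5, per span and per exon length, and signs turned 7 times. *Lyl1* was 0.0222 with median-of-ratios scaling, 0.10 without mouse 1.1 and 0.15 without mouse 3.5, per span and per exon length alike, and *Myb* was 0.0348 without mouse 3.2 (0.0354 per exon length). Called members numbered 0 to 2 without 1 mouse on either scale. Called list genes numbered 6, 4 by voom on recovered reads, 5 with a pseudocount of 0.1, 3 with no filter on expression (more genes tested), and 0 to 9 without 1 mouse on either scale. Calls among all tested genes numbered 510, 61 to 758 without 1 mouse (74, 66 and 61 without mice 1.1, 1.2 and 1.4), and 125 to 1044 per exon length without 1 mouse, where the values without mice 3.2, 3.3, 1.1, 1.2 and 1.4 were 1044, 847, 161, 125 and 127. The cause was not tested. Of the 510 calls 34.3% were higher in *Hoxa9*/*IRX3*, against 46.1% of 508 with quantile normalization. No paired analysis was possible because the mouse numbers name animals and are not shared between the cohorts. Depth limits *Tal1*, with 0 to 2 reads in 5 mice. The p-values rest on the spread among 3 mice per cohort. Limma pools it over both cohorts and moderates it with a trend over all tested genes.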
